A study of Mus musculus with 4 samples.

Results

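The genes described here are the albumin gene family (Alb, Afp, Afm and Gc) and 5 other genes for proteins that the liver secretes into plasma (Ttr, Rbp4, Ahsg, Fetub and Ambp). They are 9 of the 56748 genes in the deposited table. All 9 were chosen by name, with their FPKM in JIB-04 and untreated livers already known, so their differences are given as a description. No p-value of theirs is printed, and the calls that a test made among them, under any setting, are given for completeness only. The data are RNA sequencing of whole liver from 4 NSG mice, an immunodeficient strain without mature B, T and natural killer cells, whose genotype is labelled WT in both groups. In the first group 2 mice received JIB-04, a small molecule that blocks Jumonji enzymes, which take methyl groups off histones. It was given into the stomach at 55 mg/kg, with 2 doses a week and 5 doses in all. The second group was 2 untreated mice, which got no vehicle gavage, so the drug and the gavage cannot be told apart. The sources used here do not give the age of the mice. Each library is the liver of a separate mouse, per the design text.

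Plasma carrier proteins are made mostly by hepatocytes and bind small hydrophobic molecules that would otherwise not stay dissolved in blood. Albumin carries fatty acids, bilirubin and many drugs and maintains the oncotic pressure of plasma. The albumin family arose by gene duplication, and its fetal member, alpha-fetoprotein, is shut down in the liver after birth. Transthyretin and retinol-binding protein 4 travel together as the carrier of vitamin A.

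Recovered reads numbered 43283827 and 36469514 in JIB-04 1 and 2, against 36793474 and 36878654 in untreated 1 and 2. Between 20178 and 21465 genes had a value above 0 in each library. Values are FPKM, fragments scaled to the depth of the library and the length of the gene, so levels can be compared between genes. A log2 change is JIB-04 minus untreated on the log2(FPKM + 1) scale, and calls were made at a limma adjusted p under 0.05, over the 10819 genes whose mean FPKM was 1 or more. All 8 hepatocyte markers were tested and 0 were called, and their summed FPKM was 8314 and 8924 in JIB-04 livers, against 11232 and 9356 in untreated livers. Most of each sum was Apoa1, itself a gene for a plasma protein. It had 5758 and 6185 FPKM in JIB-04 livers, against 7966 and 5967.5 FPKM in untreated livers. The sums thus say little about the number of hepatocytes. Of the other markers that passed the filter, 0 were called. These were 1 of 5 for cholangiocytes, 4 of 6 for stellate cells, 5 of 5 for endothelial cells, 6 of 6 for macrophages, 2 of 4 for neutrophils and 5 of 5 for red cells. Over all tested genes 2.14% were called. With so few markers tested for each cell type, hepatocytes included, the absence of calls says little. Red cell markers summed to 654 and 1782 FPKM in JIB-04 livers and to 2952 and 1845 FPKM in untreated livers, and their part in the results below was not tested. The neutrophil markers summed to 44.9 and 72.9 FPKM in JIB-04 livers, against 26.0 and 6.47 FPKM in untreated livers, and their part was likewise not tested. Kidney tubule markers, read because plasma proteins are taken up there, summed to at most 0.0228 FPKM in any library, with Umod, Slc34a1 and Kap at 0.

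Of the 9 carrier protein genes, 0 were called higher and 0 were called lower in JIB-04 liver, where 1.53% of all tested genes were called higher and 0.619% lower (2.14% in either direction). All 9 passed the filter on low values. Unadjusted p was under 0.05 for 5 of the 9 (Alb, Rbp4, Ahsg, Fetub and Ambp), as for 15.5% of tested genes. The 2 groups did not overlap for 7 of the 9, with Fetub and Ambp above and Alb, Afm, Ttr, Rbp4 and Ahsg below in JIB-04 livers, and they did not overlap for 46.4% of tested genes. With voom, which models recovered reads in place of FPKM, 1 of the 9 was called (Ambp, higher), against 4.76% of tested genes. Since the genes were chosen with these values known, nothing is read from these counts or from later calls of single genes among the 9. The median log2 change of the 9 was -0.16, and that of all tested genes was 0.01. With 2 livers in each group the smallest two-sided p of an exact permutation test is 0.333.

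**Figure D1:**
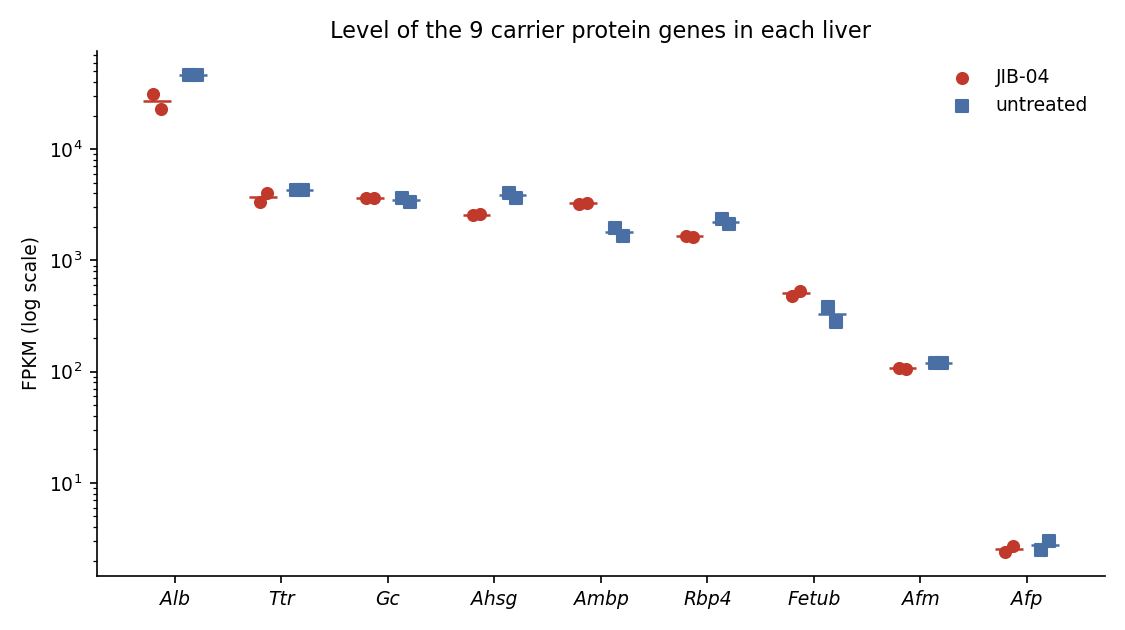
FPKM of the 9 carrier protein genes in each liver on a log axis, with JIB-04 livers as red circles, untreated livers as blue squares and a bar for each group mean. Alb in JIB-04 livers was at 31689 and 22910.4 FPKM, under both untreated livers, while the Afp and Gc values of the groups overlap.

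Albumin was the most abundant transcript of every library. Alb (ENSMUSG00000029368, chromosome 5, 90608756 to 90624461, plus strand, GRCm39) had 31689 and 22910.4 FPKM in JIB-04 livers, against 46658 and 46858 FPKM in untreated livers. Both JIB-04 livers were below both untreated livers, and JIB-04 2 was the lowest. The next most abundant gene was mt-Co1, a mitochondrially encoded subunit of cytochrome c oxidase, at 11189 and 10945 FPKM in JIB-04 livers and 8607 and 10417 FPKM in untreated livers. The mean of Alb was 27300 ± 6208 FPKM in JIB-04 livers and 46758 ± 141 FPKM in untreated livers (SD, n = 2 each), a fold of 0.584 and a log2 change of -0.80 (SE 0.22). The highest JIB-04 value was 1.38 times the lowest, whereas the same ratio was 1.004 between the untreated livers. Leaving out JIB-04 1 gave a log2 change of -1.03, and leaving out JIB-04 2 gave -0.56. Behind these levels stood 3181617 and 1970232 reads in JIB-04 livers and 4007302 and 4145739 reads in untreated livers. Alb made up 8.27% and 5.86% of all summed FPKM in JIB-04 livers, and 12.0% and 12.3% in untreated livers. In bulk tissue, fewer cells of a type and less RNA per cell cannot be told apart.

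Alpha-fetoprotein and albumin are neighbours on the same strand, and these livers held them at opposite ends of the range of these genes. Afp (ENSMUSG00000054932, chromosome 5, 90638596 to 90656766, plus strand, GRCm39) had 2.40 and 2.72 FPKM in JIB-04 livers, against 2.47 and 3.03 FPKM in untreated livers. The groups overlapped, with 347 and 337 reads in JIB-04 livers and 305 and 385 reads in untreated livers. The mean was 2.56 ± 0.227 FPKM in JIB-04 livers and 2.75 ± 0.394 FPKM in untreated livers (SD, n = 2 each), with a log2 change of -0.07 (SE 0.14), which was 0.037 when untreated 2 was left out. Per length, Alb stood at 13186 and 8408 times Afp in JIB-04 livers and at 18895 and 15485 times Afp in untreated livers. A long noncoding RNA gene on the minus strand, Gm43449, overlaps Afp and had 1.82 and 3.01 FPKM in JIB-04 livers, against 2.28 and 3.21 FPKM in untreated livers. The sources used here do not give whether the counting used strand, so reads of these overlapping genes may have been assigned to either. The minus-strand genes Gm42109 and Gm30505 overlap Afm and Ahsg, to which the same applies.

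The start regions of Alb and Afp are shown because these neighbours share regulators of hepatocyte transcription and differ most in level. The sequences are RefSeq's on GRCm38.p6, on the strand of the gene, with 250 bases before and 50 bases after the annotated start, and 8 of the 9 genes matched the table, all but Ttr. Capitals mark exact matches on either strand to 4 motifs. TATAAA is the letters of the TATA box and GTTAAT is 1 arm of a site of the factor HNF1. The CCAAT box was searched by its name's letters, and TTGCNNAA is the core of a C/EBP site. Positions are those of the leftmost base, negative before the annotated start.
Alb, chr5:90460620-90460919: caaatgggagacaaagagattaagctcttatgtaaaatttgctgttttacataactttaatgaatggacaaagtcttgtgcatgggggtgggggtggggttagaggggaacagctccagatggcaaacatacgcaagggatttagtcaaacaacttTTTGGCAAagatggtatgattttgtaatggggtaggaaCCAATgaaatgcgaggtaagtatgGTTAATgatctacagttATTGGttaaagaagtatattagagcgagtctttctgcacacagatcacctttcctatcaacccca
Afp, chr5:90490464-90490763: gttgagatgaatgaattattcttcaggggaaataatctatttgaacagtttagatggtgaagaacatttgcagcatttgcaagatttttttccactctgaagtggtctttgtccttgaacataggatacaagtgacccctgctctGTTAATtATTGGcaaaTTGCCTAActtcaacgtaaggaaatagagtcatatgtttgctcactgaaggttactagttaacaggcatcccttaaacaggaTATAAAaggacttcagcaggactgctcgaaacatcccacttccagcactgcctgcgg
In the Alb window GTTAAT was at -32, CCAAT at -56 and, on the other strand, at -15, and TTGCNNAA at -94 on the other strand. In the Afp window TATAAA was at -7, GTTAAT at -105, TTGCNNAA at -89 and CCAAT at -98 on the other strand. GTTAAT was present for 4 of the 8 matched genes (Alb, Afp, Afm and Gc) and in 7.10% of all 32851 promoter windows of the table. TTGCNNAA was present for 4 of the 8 (Alb, Afp, Ahsg and Rbp4), against 10.8% of windows, and TATAAA for 4 of the 8 (Afp, Afm, Fetub and Rbp4), against 13.6%. CCAAT was present for 8 of the 8, against 37.4% of windows. Rbp4 and Fetub have 2 start sites each and count as matched where either holds the letters, which gives them a larger window than a single promoter. None of the 23 matches overlapped another motif's match, and a match is only a run of letters.

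Afamin, a plasma carrier of vitamin E and of secreted Wnt proteins, varied little within a group. Afm (ENSMUSG00000029369, chromosome 5, 90666791 to 90701402, plus strand) had 107.1 and 106.6 FPKM in JIB-04 livers, against 119.8 and 119.9 FPKM in untreated livers. Both JIB-04 livers were below both untreated livers, at a fold of 0.892 and a log2 change of -0.16 (SE 0.12). Gc encodes the vitamin D-binding protein, which also binds actin released from dying cells. Gc (ENSMUSG00000035540, chromosome 5, 89565381 to 89605757, minus strand) had 3616 and 3651 FPKM in JIB-04 livers, against 3619 and 3388 FPKM in untreated livers. The groups overlapped, with a log2 change of 0.05 (SE 0.15), which was -0.0033 on a TPM scale computed after leaving out mitochondrial and the 50 highest genes. The Alb to Gc ratio was 8.76 and 6.27 in JIB-04 livers, against 12.9 and 13.8 in untreated livers, and the groups did not overlap. Summed over the 4 genes of the albumin family, FPKM came to 35415 and 26671 in JIB-04 livers and to 50399 and 50369 in untreated livers.

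Transthyretin carries thyroxine and holds the retinol-binding protein in plasma. Ttr (ENSMUSG00000061808, chromosome 18) had 3342 and 4024 FPKM in JIB-04 livers, against 4316 and 4337 FPKM in untreated livers. Both JIB-04 livers were below both untreated livers, JIB-04 1 the more so, at a fold of 0.851 and a log2 change of -0.24 (SE 0.17). Leaving out JIB-04 1 gave -0.10, and leaving out JIB-04 2 gave -0.37. Rbp4 encodes the retinol carrier itself. Rbp4 (ENSMUSG00000024990, chromosome 19, 38105077 to 38113729, minus strand) had 1648 and 1642 FPKM in JIB-04 livers, against 2338 and 2109.7 FPKM in untreated livers. The groups did not overlap, and the mean was 1645 ± 4.38 FPKM in JIB-04 livers and 2224 ± 162 FPKM in untreated livers (SD, n = 2 each), a fold of 0.740 and a log2 change of -0.43 (SE 0.15). Of the 16 alternative settings, 1 (quantile normalization) called Rbp4, as lower. The Ttr to Rbp4 ratio was 2.03 and 2.45 in JIB-04 livers and 1.85 and 2.06 in untreated livers, and overlapped between the groups.

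The fetuins are plasma proteins of the cystatin superfamily, and their neighbouring genes had opposite signs. Fetuin-A, encoded by Ahsg, keeps calcium phosphate from precipitating in blood. Ahsg (ENSMUSG00000022868, chromosome 16, 22710027 to 22718199, plus strand, GRCm39) had 2561 and 2613 FPKM in JIB-04 livers, against 4053 and 3636 FPKM in untreated livers. Both JIB-04 livers were below both untreated livers, and the mean was 2587 ± 36.8 FPKM in JIB-04 livers and 3844 ± 295 FPKM in untreated livers (SD, n = 2 each), a fold of 0.673 and a log2 change of -0.57 (SE 0.16). Fetuin-B, encoded by Fetub, inhibits the egg protease ovastacin and is needed for female fertility in mice. Fetub (ENSMUSG00000022871, chromosome 16, 22737084 to 22758528, plus strand, GRCm39) had 481 and 533 FPKM in JIB-04 livers, against 381 and 280.4 FPKM in untreated livers. Both JIB-04 livers were above both untreated livers, and the mean was 507 ± 36.6 FPKM in JIB-04 livers and 330.5 ± 70.8 FPKM in untreated livers (SD, n = 2 each), a fold of 1.53 and a log2 change of 0.63 (SE 0.18), which was 0.41 when untreated 2 was left out. The Ahsg to Fetub ratio was 5.32 and 4.90 in JIB-04 livers, against 10.6 and 12.96 in untreated livers. Since Ahsg was lower and Fetub higher in both JIB-04 livers, the ratio had to be lower there and adds no further result.

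The start regions of Ahsg and Fetub are shown because the genes are neighbours and their log2 changes had opposite signs. They come from the same RefSeq table on GRCm38.p6, with the same 4 motifs in capitals, and the Fetub window is that of its first annotated start.
Ahsg, chr16:22891765-22892064: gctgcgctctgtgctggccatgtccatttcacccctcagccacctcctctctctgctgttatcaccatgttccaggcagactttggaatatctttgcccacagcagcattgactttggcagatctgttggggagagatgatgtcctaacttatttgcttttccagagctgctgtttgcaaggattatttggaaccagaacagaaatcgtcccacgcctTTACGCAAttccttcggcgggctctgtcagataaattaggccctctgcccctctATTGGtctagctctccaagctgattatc
Fetub, chr16:22918132-22918431: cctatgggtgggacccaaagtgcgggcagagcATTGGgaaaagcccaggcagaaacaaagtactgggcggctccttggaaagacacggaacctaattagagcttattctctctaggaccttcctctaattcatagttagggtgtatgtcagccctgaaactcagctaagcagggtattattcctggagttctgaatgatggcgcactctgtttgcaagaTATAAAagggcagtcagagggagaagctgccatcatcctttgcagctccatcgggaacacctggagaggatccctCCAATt
In the Ahsg window TTGCNNAA was at -32 and CCAAT at 23, both on the other strand. In the Fetub window TATAAA was at -31, and CCAAT at -218 on the other strand and at 45. TATAAA was not in the Ahsg window, and neither GTTAAT nor TTGCNNAA was in the Fetub window.

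Ambp encodes a precursor that is cut into alpha-1-microglobulin, a scavenger of heme and radicals, and bikunin, the light chain of the inter-alpha-inhibitors. Ambp (ENSMUSG00000028356, chromosome 4, 63061512 to 63073036, minus strand, GRCm39) had 3222 and 3316 FPKM in JIB-04 livers, against 1956 and 1652 FPKM in untreated livers. Both JIB-04 livers were above both untreated livers, and the mean was 3269 ± 66.4 FPKM in JIB-04 livers and 1804 ± 215 FPKM in untreated livers (SD, n = 2 each), a fold of 1.81. The log2 change was 0.86 (SE 0.16), the largest upward value of the 9 genes. Ambp was called higher in 6 of the 16 alternative settings, listed with the processing. The heavy chains that bikunin is joined to are encoded by members of the Itih gene family. Which of the Itih genes here encode such chains was not tested. Of 5 tested Itih genes, 0 were called, 0 had an unadjusted p under 0.05 and voom called 0. Over all tested genes these shares were 2.14%, 15.5% and 4.76%, so with so few genes the absence of calls says little. The median log2 change of the 5 was -0.07, beside 0.01 over all tested genes. Itih3 averaged 417 FPKM in JIB-04 livers and 497 FPKM in untreated livers (log2 change -0.23, limma adjusted p = 0.696), and Itih4 757 FPKM in JIB-04 livers and 897 FPKM in untreated livers (log2 change -0.24, limma adjusted p = 0.708). These were the 2 Itih genes of lowest p, and both changed sign when untreated 1 was left out. The Ambp to Itih1 ratio was 11.3 and 12.1 in JIB-04 livers, against 6.20 and 6.09 in untreated livers. The Ambp to Itih2 ratio was 6.32 and 7.31 in JIB-04 livers, against 3.98 and 4.23 in untreated livers. Neither ratio overlapped between the groups.

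**Figure D2:**
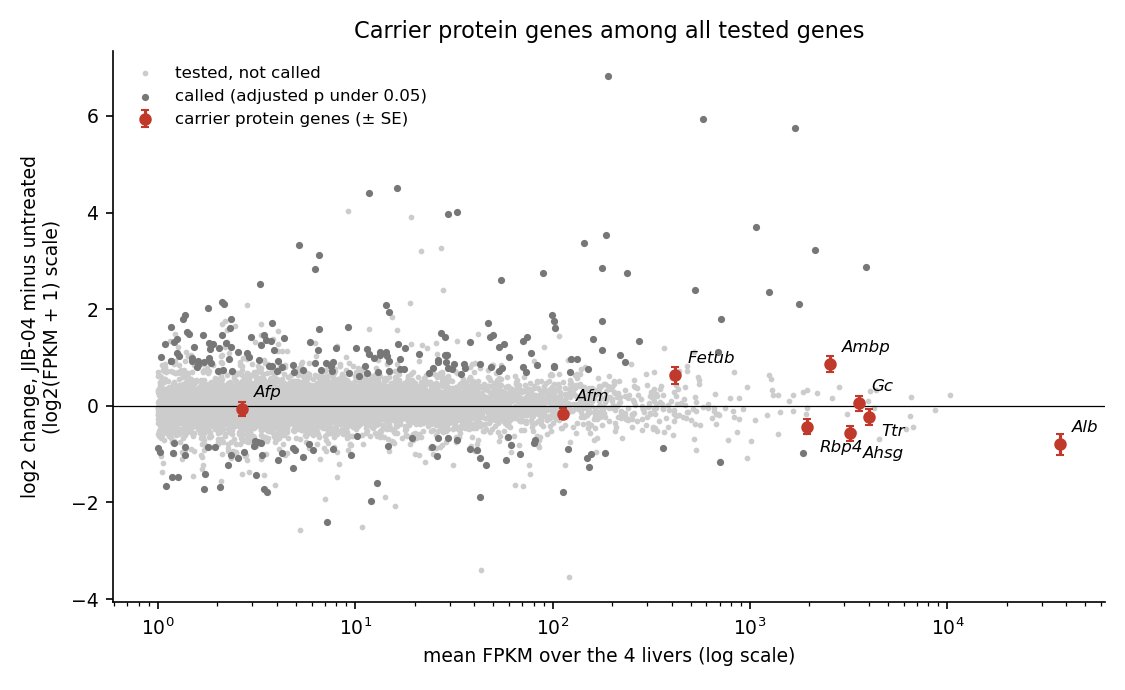
Mean FPKM of each of the 9 carrier protein genes (red) over the 4 livers (horizontal, log scale) against its log2 change, JIB-04 minus untreated (vertical, bars show 1 SE), over all 10819 tested genes, with called genes in dark grey and the others in light grey. Ambp at 0.86 and Fetub at 0.63 lie above 0, Alb at -0.80 and Ahsg at -0.57 lie below it, and 0 of the 9 were called.

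The order of levels per length differed between the groups. In JIB-04 livers it ran Alb, Ttr, Gc, Ambp, Ahsg, Rbp4, Fetub, Afm and Afp, and of these neighbours only Ttr and Gc had overlapping ranges. In untreated livers it ran Alb, Ttr, Ahsg, Gc, Rbp4, Ambp, Fetub, Afm and Afp, and no neighbouring ranges overlapped. Ahsg was thus ahead of Gc, Rbp4 and Ambp in untreated livers, and Ambp was ahead of Ahsg and Rbp4 in JIB-04 livers. Each range rests on 2 livers.

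Together the 9 genes held 46669.9 and 38799 FPKM in JIB-04 livers, against 63443 and 62384 FPKM in untreated livers. That was 12.2% and 9.92% of all summed FPKM in JIB-04 livers and 16.3% and 16.4% in untreated livers. Without Alb the other 8 summed to 14981 and 15889 FPKM in JIB-04 livers and to 16785 and 15527 FPKM in untreated livers, and the groups overlapped. The fold of the summed means was 0.679 with Alb and 0.955 without it. The 5 genes outside the albumin family summed to 11255 and 12128 FPKM in JIB-04 livers and to 13044 and 12015 FPKM in untreated livers, at a fold of 0.933. FPKM is a relative scale, divided by the reads of the library, so the reads of an abundant gene such as Alb enter the denominator of every other value. The shares above are of summed FPKM, which is not that denominator.

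**Figure D3:**
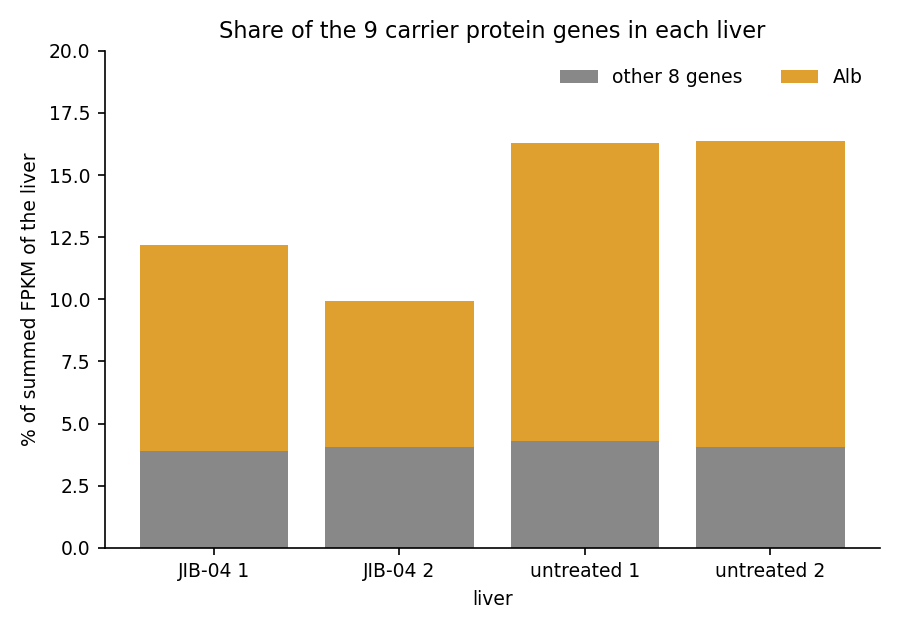
Share of all summed FPKM (percent) held by Alb and by the other 8 carrier protein genes in each liver, stacked from 0. Alb held 8.27% and 5.86% in JIB-04 livers and 12.0% and 12.3% in untreated livers, while the other 8 held between 3.91% and 4.31%.

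The neighbourhood of the albumin family on chromosome 5, from Gc to Afm with 200 kb on each side, holds 22 genes of the table. Of these, 12 averaged 1 FPKM or more, and 0 of the 12 were called, beside 2.14% of all tested genes. With so few genes, the absence of calls says little. Besides Alb, Afp, Afm and Gc the 12 were Slc4a4, Cox18, Ankrd17, Gm43449, Gm42109, Gm2602, Albfm1 and Rassf6. Albfm1, a further gene of the albumin family, had 14.2 and 18.1 FPKM in JIB-04 livers, against 16.7 and 18.0 FPKM in untreated livers (limma adjusted p = 0.813), and the groups overlapped. On chromosome 16, Ahsg and Fetub stand in a row with the other cystatin superfamily genes Hrg, Kng2 and Kng1. Histidine-rich glycoprotein (Hrg) averaged 554 ± 19.5 FPKM in JIB-04 livers and 492 ± 104 FPKM in untreated livers (log2 change 0.19, limma adjusted p = 0.691). Kng2, a kininogen gene, averaged 152 FPKM in JIB-04 livers and 144 FPKM in untreated livers (log2 change 0.08, limma adjusted p = 0.878). Of 4 tested genes of the superfamily beside the fetuins, 0 were called, 0 had an unadjusted p under 0.05 and voom called 0. Over all tested genes these shares were 2.14%, 15.5% and 4.76%. The median log2 change of the 4 was 0.02. Hrg changed sign when untreated 2 was left out and with quantile normalization, and Kng2 in both of these and when JIB-04 1 was left out.

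**Figure D4:**
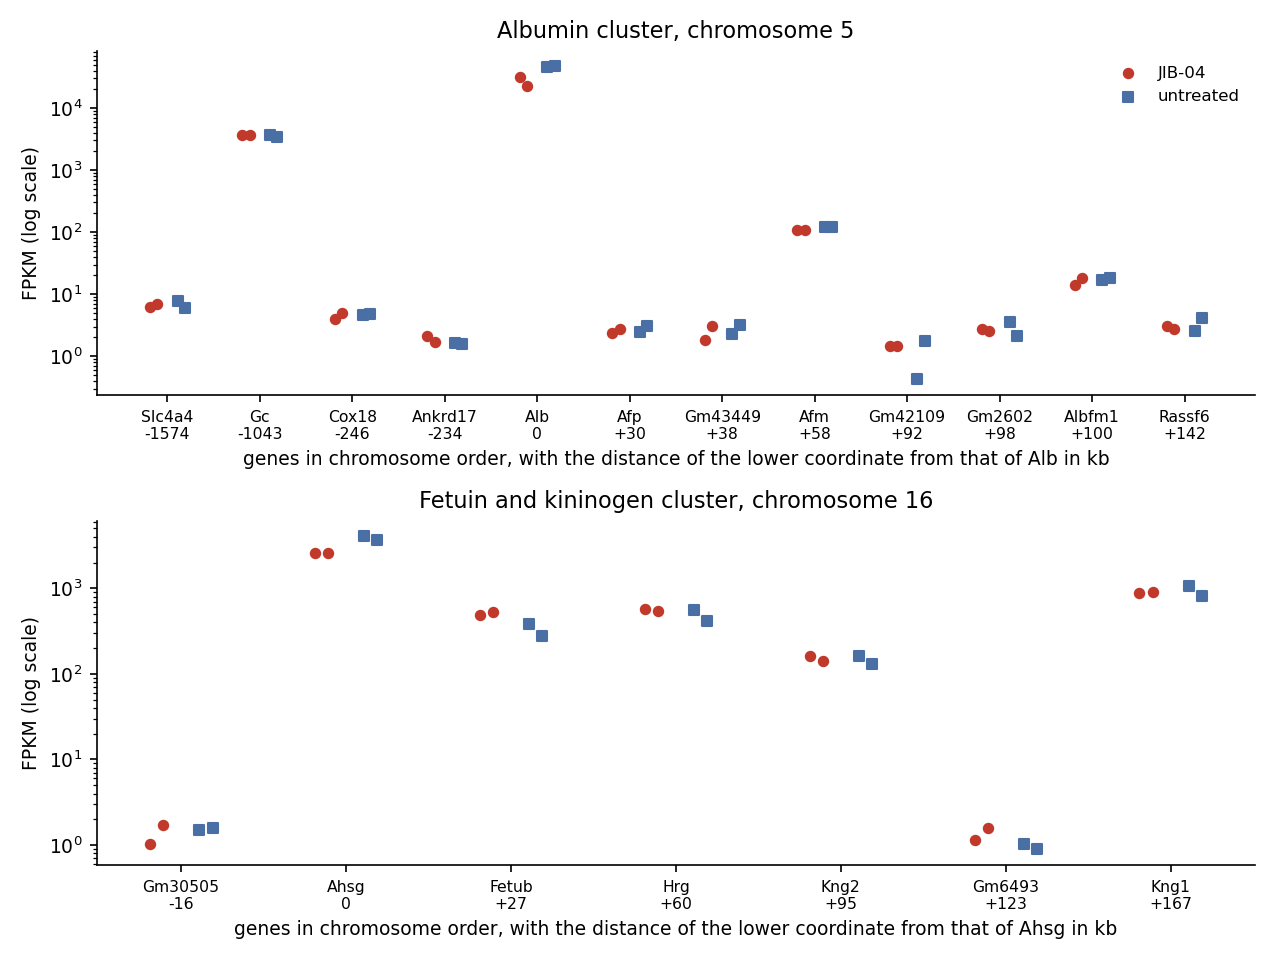
FPKM (log scale) of genes with a mean of at least 1 around Alb (top, 12 genes) and from Ahsg to Kng1 (bottom, 7 genes), in chromosome order, evenly spaced, with the distance from the lower coordinate of Alb or Ahsg in kb. JIB-04 livers are red circles and untreated livers blue squares. Alb and Ahsg are lower and Fetub is higher in both JIB-04 livers, while Hrg, Kng2 and Kng1 overlap between the groups.

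Other genes of retinoid handling, the pathway that Rbp4 and Ttr serve, included 2 that passed the test. Of 9 tested genes 2 were called higher (Aldh1a1 and Cyp26a1), beside 1.53% of all tested genes. Called lower were 0, beside 0.619%, and 7 did not pass. The median log2 change of the 9 was 0.04, beside 0.01 over all tested genes. Voom called 3, beside 4.76% of all tested genes. Unadjusted p was under 0.05 for 5 of the 9, beside 15.5% of tested genes. The groups did not overlap for 6 of the 9, with 4 higher and 2 lower in JIB-04 livers, beside 46.4% of tested genes. Aldh1a1, which oxidizes retinaldehyde to retinoic acid, had 848 and 926 FPKM in JIB-04 livers, against 159 and 178 FPKM in untreated livers. Its fold was 5.26 and its log2 change 2.39 (SE 0.140, limma adjusted p = 0.000554), and it was called in 16 of 16 alternative settings. Cyp26a1, which degrades retinoic acid, averaged 23.6 ± 0.744 FPKM in JIB-04 livers and 4.84 ± 0.990 FPKM in untreated livers (SD, n = 2 each, log2 change 2.09, SE 0.147, limma adjusted p = 0.00145). Its adjusted p was 0.0661 with no filter, 0.0634 when JIB-04 1 was left out and 0.0768 when JIB-04 2 was left out, and ranged between 8.98e-06 and 0.0768 over the alternatives.

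Genes of the other ligands did not pass the limma threshold, which 2.14% of all tested genes passed. Unadjusted p was under 0.05 for 15.5% of all tested genes, and voom called 4.76%. With so few genes in these lists, the absence of limma calls says little. Of 3 tested genes of vitamin D metabolism and uptake, served by Gc, 0 were called, 2 had an unadjusted p under 0.05 and voom called 0, with a median log2 change of 0.36. Cyp27a1, a mitochondrial sterol hydroxylase, averaged 171 FPKM in JIB-04 livers and 133 FPKM in untreated livers (log2 change 0.36, limma adjusted p = 0.286). Dhcr7, which draws the vitamin D precursor into cholesterol, averaged 33.6 FPKM in JIB-04 livers and 21.2 FPKM in untreated livers (log2 change 0.66, limma adjusted p = 0.190). Of 8 tested genes of thyroid hormone transport and response, served by Ttr, 0 were called by limma, 2 had an unadjusted p under 0.05 and voom called 1, with a median of -0.19. Slc16a10, a transporter of amino acids and thyroid hormones, averaged 8.45 FPKM in JIB-04 livers and 11.3 FPKM in untreated livers (log2 change -0.39, limma adjusted p = 0.235).

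Among 20 other plasma carriers 1 was called higher (Orm3), beside 1.53% of all tested genes, and 1 lower (A1bg), beside 0.619%. The other 18 did not pass. The median log2 change of the 20 was -0.11, beside 0.01 over all tested genes. The groups did not overlap for 12 of the 20, with 6 higher and 6 lower in JIB-04 livers, beside 46.4% of all tested genes. Voom called 2 of the 20, beside 4.76% of all tested genes. Orm3, an orosomucoid gene for a carrier of basic drugs, averaged 75.3 ± 10.9 FPKM in JIB-04 livers and 31.8 ± 5.21 FPKM in untreated livers (SD, n = 2 each, log2 change 1.22, SE 0.165, limma adjusted p = 0.0199). Orm1, Orm2 and Orm3 are close copies, so reads may be split between them. Orm1 had 1471 and 1384 FPKM in JIB-04 livers, against 1352 and 966 FPKM in untreated livers (log2 change 0.32), and was not called. Orm2 had 63.1 and 53.6 FPKM in JIB-04 livers, against 132.6 and 42.1 FPKM in untreated livers (log2 change -0.36), and the groups overlapped. The Orm3 adjusted p was 0.118 without JIB-04 1, 0.177 without JIB-04 2, 0.0539 without untreated 2 and 0.211 with no filter. A1bg, a plasma glycoprotein of the immunoglobulin superfamily, averaged 1.64 ± 0.742 FPKM in JIB-04 livers and 12.7 ± 0.407 FPKM in untreated livers (SD, n = 2 each, log2 change -2.40, SE 0.200, limma adjusted p = 0.00528). With no filter its adjusted p was 0.102. Transferrin, the iron carrier (Trf), had 5118 and 5109.9 FPKM in JIB-04 livers, against 7949.9 and 6389 FPKM in untreated livers (limma adjusted p = 0.265). The Alb to Trf ratio was 6.19 and 4.48 in JIB-04 livers and 5.87 and 7.33 in untreated livers, and overlapped between the groups.

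Albumin, transthyretin, Rbp4 and fetuin-A belong to the negative acute phase proteins, which fall in plasma during inflammation, so the positive ones were read as well. Of 20 tested, 2 were called higher (Crp and Orm3), beside 1.53% of all tested genes, and 1 lower (Hamp), beside 0.619%. The other 17 did not pass. The median log2 change of the 20 was 0.30, beside 0.01 over all tested genes. Voom called 4, beside 4.76% of all tested genes. Unadjusted p was under 0.05 for 6 of the 20, beside 15.5% of tested genes. The groups did not overlap for 9 of the 20, with 7 higher and 2 lower in JIB-04 livers, beside 46.4% of tested genes. Orm1, Orm2, Orm3, Hp, Hpx, Cp and Apcs are also among the other plasma carriers above, so the Orm3 call is the same one. Crp, C-reactive protein, a minor acute phase protein in mice, averaged 151 ± 1.65 FPKM in JIB-04 livers and 93.2 ± 5.17 FPKM in untreated livers (SD, n = 2 each, log2 change 0.69, SE 0.122, limma adjusted p = 0.0447). Its call was kept in 8 of 16 alternative settings and in 0 of the 4 that left out a library, where the adjusted p was 0.171 without JIB-04 1, 0.220 without JIB-04 2, 0.114 without untreated 1 and 0.163 without untreated 2. Hamp, the iron hormone hepcidin, averaged 1248 ± 93.2 FPKM in JIB-04 livers and 2473 ± 186 FPKM in untreated livers (SD, n = 2 each, log2 change -0.99, SE 0.154, limma adjusted p = 0.0318). Its adjusted p was 0.193 without JIB-04 1, 0.205 without JIB-04 2, 0.0696 without untreated 2 and 0.208 with no filter. Saa1, serum amyloid A, had 135 and 41.7 FPKM in JIB-04 livers, against 363 and 20.6 FPKM in untreated livers, and the groups overlapped (limma adjusted p = 0.979). Saa1, Trf, Orm1 and Orm2 were picked after their values were seen.

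Transcription factors that bind the albumin promoter and its enhancers did not pass the limma threshold. Of 14 tested, 0 were called, 3 had an unadjusted p under 0.05 and voom called 1 (Cebpa). Over all tested genes these shares were 2.14%, 15.5% and 4.76%, so nothing is read from these counts. The median log2 change of the 14 was -0.12, beside 0.01 over all tested genes. Cebpa, a C/EBP factor of hepatocytes, averaged 105.8 ± 2.62 FPKM in JIB-04 livers and 156.8 ± 16.9 FPKM in untreated livers (SD, n = 2 each, log2 change -0.56, limma adjusted p = 0.101, range 0.0349 to 0.369 over the alternatives). Nfic, a nuclear factor I gene, averaged 14.3 FPKM in JIB-04 livers and 21.8 FPKM in untreated livers (log2 change -0.60, limma adjusted p = 0.218). Of 5 tested regulators of Afp and oncofetal genes, 0 were called, 0 had an unadjusted p under 0.05 and voom called 0, beside the same shares. With so few genes, the absence of calls says little. Their median log2 change was -0.11. Zbtb20, a repressor of Afp in mouse liver, averaged 3.68 FPKM in JIB-04 livers and 3.002 FPKM in untreated livers (log2 change 0.22, limma adjusted p = 0.557). Cd24a, a surface protein of fetal and regenerating liver cells, averaged 1.14 FPKM in JIB-04 livers and 1.86 FPKM in untreated livers (log2 change -0.43, limma adjusted p = 0.384).

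Of 4 tested genes of albumin recycling and asialoglycoprotein uptake, 0 were called, 0 had an unadjusted p under 0.05 and voom called 0. Over all tested genes these shares were 2.14%, 15.5% and 4.76%, so with so few genes the absence of calls says little. The median log2 change of the 4 was -0.10. B2m, the light chain of the neonatal Fc receptor that returns albumin to plasma, averaged 1811 FPKM in JIB-04 livers and 2027 FPKM in untreated livers (log2 change -0.17, limma adjusted p = 0.711). Asgr2, a subunit of the asialoglycoprotein receptor, averaged 114 FPKM in JIB-04 livers and 126 FPKM in untreated livers (log2 change -0.14, limma adjusted p = 0.727).

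**Figure D5:**
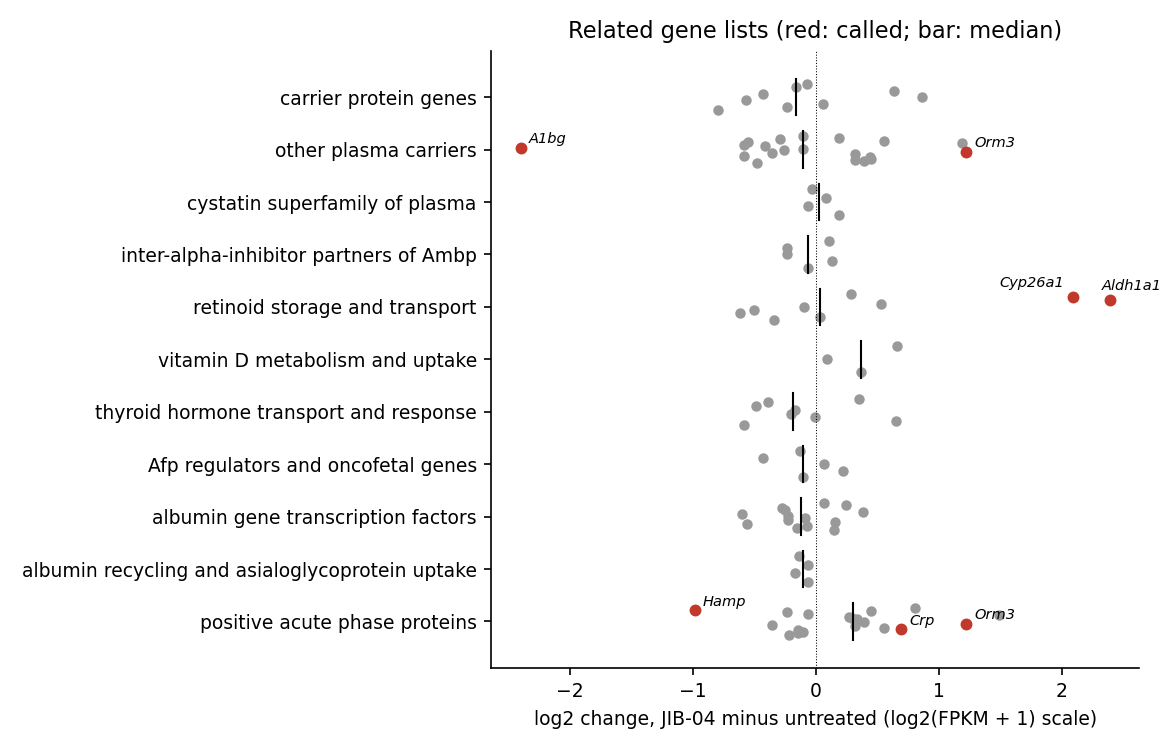
Log2 change, JIB-04 minus untreated, of each tested gene in the carrier protein set and in 10 related lists, with a bar at each median and called genes in red. A gene that belongs to several lists is drawn in each of them. The list labelled as partners of Ambp holds the tested Itih genes, whether or not their proteins are joined to bikunin. Aldh1a1 at 2.39 and Cyp26a1 at 2.09 lie farthest right and A1bg at -2.40 farthest left, while 0 of the 9 carrier protein genes are red.

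Profiles most like those of Alb and Afp were sought among 3054 protein-coding genes with a mean of at least 10 FPKM, by the root mean square difference of centred log2(FPKM + 1) over the 4 livers. For Alb the closest was Marveld1 (difference 0.0175), with 9.28 and 6.38 FPKM in JIB-04 livers, against 13.8 and 14.3 FPKM in untreated livers, followed by Nrn1 (0.0779) and Id1 (0.0993). For Afp the closest were Tle5 (0.0153), Mrps15 (0.0159) and Slc10a1 (0.0196). With 4 livers, likeness of this kind is a description.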

How the data were processed

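Liver RNA libraries were made from 2 JIB-04 treated and 2 untreated mice after Trizol extraction, by a sequencing provider, per the labels' protocols. The authors deposited FPKM values for 56748 genes, with gene lengths and coordinates on GRCm39 (mm39), the build in the submitters' processing notes. The sources used here do not give the aligner, read counter, annotation release or strandedness. FPKM times gene length gave whole reads for 100% of values (tolerance 0.01), so the reads behind each value were recovered.

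Values were log2(FPKM + 1), and they were tested two-sided with limma 3.58.1 under R 4.3.3, with trend and robust moderation, on genes averaging 1 FPKM or more, with Benjamini-Hochberg adjusted p under 0.05 over all 10819 of them. The script was tested on simulated data. Tables and figures were made with Python 3.11.15, pandas 2.3.3, numpy 2.4.6 and matplotlib 3.10.9. Transferrin was matched to its table symbol Trf through a RefSeq synonym. The p-values measure the spread between mice.

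The carrier protein genes, the 10 related lists (101 further symbols) and the tests were chosen with earlier results of these data known. The lists share some genes, among them Hrg, Itih4, Nr5a2, Serpina7 and the Orm genes, so their counts are not independent. Named list genes are those that passed, or the 2 of lowest p where none passed; 1 result that this rule would name is not reported here. Named too are all 9 carrier protein genes, the 3 genes closest in profile to Alb and to Afp, and the genes of the albumin neighbourhood averaging 1 FPKM or more. There were 16 alternatives. They changed the pseudocount (0.1 or 0.5), the filter (none, or a mean FPKM of 5) and the scaling (TPM, TPM leaving out mitochondrial and the 50 highest genes, quantile normalization, median centring). Others dropped trend and robust moderation, used voom on the recovered reads, kept protein-coding genes alone, added a replicate block, or left out 1 library.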

Additional observations from a re-analysis of the deposited data

How the results depend on the processing

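In all, 232 genes were called, against 20 with no filter, 515 with voom, 397 among protein-coding genes only, and 23 to 156 when a library was left out (30 without JIB-04 1, 23 without JIB-04 2, 156 without untreated 1 and 155 without untreated 2). A lone library was then assumed to vary like the other group. With TPM leaving out mitochondrial and the 50 highest genes, 156 genes were higher and 105 lower, against 165 higher and 67 lower as reported. With the replicate number as a block (replicate block), 357 were called. The numbers are not known to pair the mice, and the correlation of the deviations of JIB-04 1 and untreated 1 was -0.0492.

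Of the 9 carrier protein genes, 1 (Ambp) was called higher, in place of 0, with a filter at a mean FPKM of 5, with TPM, with TPM leaving out mitochondrial and the 50 highest genes, with voom, among protein-coding genes only and with the replicate block. With quantile normalization 1 (Rbp4) was called lower, in place of 0. Their median log2 change was then -0.082, against -0.16, and the log2 ratio of their summed FPKM was -0.049, against -0.56. Quantile normalization gives the top gene of each library 1 value, so the Alb difference is 0 by construction. The log2 ratio of the sums was between -0.70 (without JIB-04 1) and -0.43 (without JIB-04 2) when a library was left out. Afp, at -0.07, lay between -0.18 and 0.037 with a library left out, and was above 0 without untreated 2. Ttr, at -0.24, lay between -0.37 (without JIB-04 2) and -0.10 (without JIB-04 1), Fetub, at 0.63, between 0.41 (without untreated 2) and 0.85 (without untreated 1), and Gc, at 0.05, between 0.0058 (without untreated 2) and 0.10 (without untreated 1). Gc reversed to -0.0033 with TPM leaving out mitochondrial and the 50 highest genes. Hrg reversed to -0.0003 with quantile normalization and lay between -0.027 and 0.41 with a library left out. Kng2 reversed to -0.043 with quantile normalization and lay between -0.073 and 0.23. Itih3 lay between -0.51 and 0.047 and Itih4 between -0.50 and 0.025 with a library left out. Apart from what the construction shows, the cause was not tested. Depth limits Afp most, which rests on 305 to 385 reads in each library.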
